A study of Mus musculus with 16 samples.

Results

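The interaction of 5-aminolevulinic acid (ALA) and X-ray in mouse melanoma was measured over 16 of the 16 arrays of the series, 4 in each of 4 groups. For each gene it is the effect of ALA in irradiated tumours minus the effect of ALA in unirradiated tumours, (ALA plus X-ray minus X-ray) minus (ALA minus control), on the log2 scale. A value of 0 means that the 2 single effects add up to the level seen with both, a value above 0 that the tumours given both lie above that sum, and a value below 0 that they lie below it. No array was chosen by its values, and 15399 genes were tested. Of these, 138 had an interaction above 0 and 51 below 0 at an adjusted p under 0.05, against 5 and 3 with the slide as a block. Markers of macrophages, the resident phagocytes of tissue, were prominent above 0: 12 of 19 passed, and their median interaction was 4.42, with tumours given both treatments holding the most of this RNA. With the slide as a block, or with the level of skeletal muscle markers as a covariate, 0 of the 19 passed in limma. At an unadjusted p under 0.05 were 18 and 15 of them, against 3319 and 1596 of all 15399 genes. Below 0 were the hypoxia and growth arrest gene Ndrg1, the platelet receptor gene Gp9 and the adhesion gene Tenm4, none of which passed with the slide as a block. The number of genes that passed depended on single arrays and on how the slides were modelled, as given below.

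All tumours were B16-BL6 melanomas, an invasive subline of the B16 melanoma of C57BL/6 mice, in C57BL/6J mice that the labels give as male and 8 weeks old. The control group had no treatment, the ALA group had ALA at 50 mg per kg without radiation, the X-ray group was irradiated in fractions, and the ALA plus X-ray group had a local dose of ALA of 50 mg per kg before fractional irradiation. No genetic change of the host, radiation dose or time of sampling is given in the sources used here, and the tumour preparations all derive from 1 cell line. Each array was labelled as a tumour preparation from a mouse, and nothing says that any were pooled, so the p-values measure the spread between these preparations.

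ALA is the first committed precursor of heme. Cells turn it into porphyrins, and protoporphyrin IX, the last intermediate before iron is inserted, can sensitise cells to light and is known to collect in many tumours. Radiation breaks DNA, halts the cell cycle through p53 and its target Cdkn1a, and can draw macrophages and other immune cells into a tumour through interferons and chemokines. Tissue macrophages live on signals through the receptor Csf1r, make complement component C1q and lysozyme, and depend on the transcription factor PU.1, which binds sites with the core GAGGAA.

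RNA was labelled in 1 colour and hybridised to Agilent whole-genome mouse arrays. Levels are log2 of the processed signal relative to the 75th percentile of the array's spots, so that 0 is the brightness below which 75% of spots lie; the fit was made with limma on 4 group means. The 75th percentile itself lay between 213 and 521 signal units, no spot was saturated, and the number of arrays limits the precision. All 18 pigmentation genes that were tested, Tyr among them, were well above background on 16 of 16 arrays. The label for sex and the arrays differed: Xist, the RNA of the inactive X chromosome, was well above background on 16 of 16 arrays, and the Y chromosome genes Ddx3y, Eif2s3y, Kdm5d and Uty on 0 of 16. Each of 4 slides carried 1 array of every group, and slide and replicate number were the same on 16 of 16 arrays. Position on the slide followed the group on all arrays, so position and group cannot be told apart. The spread between arrays of a group, as a gene's median SD, was 0.19 for control, 0.22 for ALA, 0.25 for X-ray and 0.33 for both.

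The 189 genes that passed were 1.23% of those tested (0.896% above 0 and 0.331% below 0). At an unadjusted p under 0.05 were 2939 genes (19.1%), 1361 above 0 and 1578 below 0. The counts of list members given below from this fit stand beside these shares. Those at an unadjusted p under 0.05 with the slide as a block stand beside 3319 of 15399 genes. With the skeletal muscle level as a covariate they stand beside 1596 of 15399. The smallest adjusted p was 0.00679. The median interaction over all genes was -0.10, and 40.9% of genes lay above 0. In limma 0 genes passed for ALA against control, where 961 had an unadjusted p under 0.05, whereas ALA plus X-ray against X-ray called 200 genes higher (1.3%) and 118 lower (0.766%). X-ray against control called 307 higher (1.99%) and 212 lower (1.38%). These comparisons share groups with one another and with the interaction.

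Among the genes that passed, median fitted interactions were 3.78 above 0 and 1.14 in size below 0; 27 and 4 of them were not well above background on any array of 1 or more groups, so that their fitted values are no exact sizes. Of the 138, the mean was highest in ALA plus X-ray for 134 and in control for 4, and lowest in ALA for 103 and in X-ray for 35. Of the 51, the mean was highest in X-ray for 27, in ALA for 23 and in control for 1, and lowest in ALA plus X-ray for 36 and in control for 15. Over all genes ALA plus X-ray had the highest mean in 26.6% and the lowest in 43.4%. Within slides, the interaction was above 0 on all 4 for 124 of the 138 and below 0 on all 4 for 51 of the 51. These counts only describe the genes that passed, since the same 16 arrays chose them; over all genes the shares on all 4 slides were 8.7% and 15.6%. For 8315 genes (54%) the 95% confidence interval lay within 1 log2 unit of 0 on either side, and the median standard error of the interaction was 0.28, against 0.20 for ALA plus X-ray minus X-ray.

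**Figure D1:**
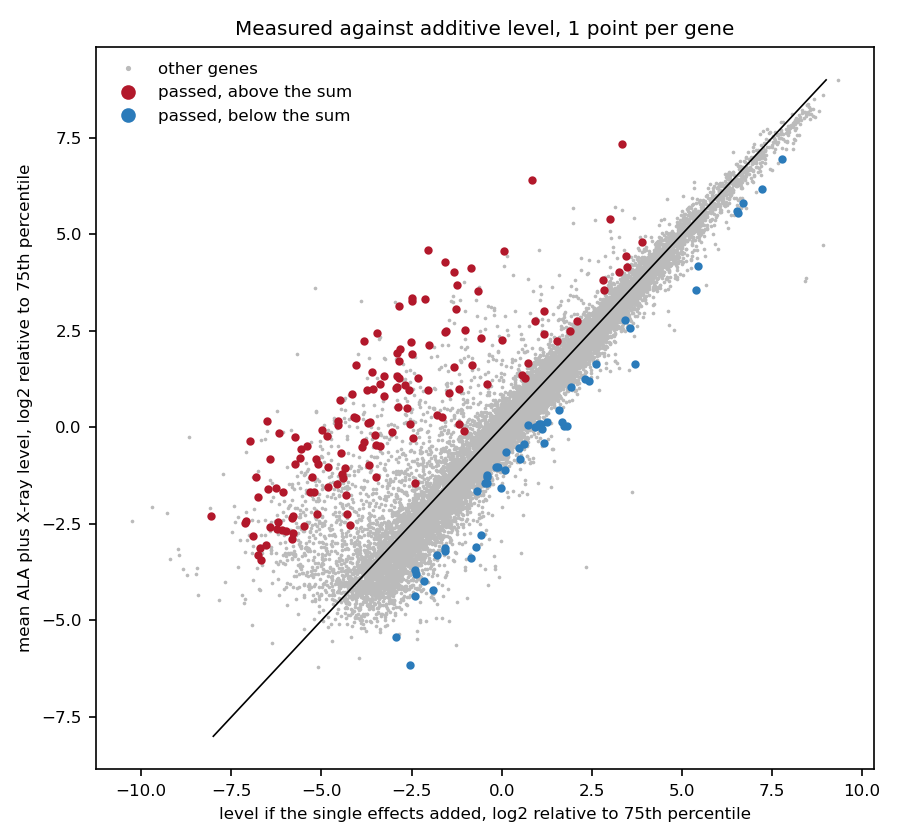
Mean log2 level in ALA plus X-ray tumours (vertical) against the level reached if the effects of ALA and X-ray simply added (horizontal), both relative to the array's 75th percentile, 1 point per gene for 15399 genes, with the line of equality. The 138 genes that passed above the sum (red) lie mostly far from the line, and the 51 that passed below it (blue) close to it.

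The count was sensitive to the slides and to single arrays. With the slide (the replicate number) as a block, 8 genes passed, 5 above 0 and 3 below 0, of which 6 were among the 189, and 3319 had an unadjusted p under 0.05. Scaled to each array's median instead, 273 passed, 241 above 0 and 32 below 0. Without slide 1 the count was 1339, and without slide 2, 3 or 4 it was 0 in limma, with 2158, 1724 and 1399 genes at an unadjusted p under 0.05. Without 1 array the count was 134, 4, 1 or 3 for control replicates 1 to 4, 39, 400, 14 or 1 for ALA, 762, 12, 4 or 9 for X-ray and 1065, 1, 1 or 4 for ALA plus X-ray. On slide 1 the X-ray tumour was high and the ALA plus X-ray tumour low for many of the genes described here. Skeletal muscle markers varied between tumours as well: the summed linear level of 17 markers ran from 17.3 to 450 on control arrays and from 14.2 to 1390 with both treatments, against 16.5 to 30.5 with ALA alone and 20.4 to 63.9 with X-ray alone. With that marker level as a covariate 4 genes passed, all above 0, and 1596 had an unadjusted p under 0.05.

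Genes of macrophages and monocytes were the list with the most members that passed above the additive level. All 19 listed genes were tested, 19 of 19 had an interaction above 0, and 12 passed (63.2%, against 0.896% of all genes), among them Adgre1, Aif1, C1qa, C1qb, C1qc, Cd68, Csf1r, Lyz2, Mpeg1, Mrc1 and Ms4a7. The remaining 7 ranged from 1.56 for Cd14, the co-receptor for bacterial lipopolysaccharide, to 4.60 for the Fc receptor gene Fcgr1. The list was drawn up with earlier results of these data known, so its count is not independent evidence of a direction. Its median interaction was 0.64, 3.33, 7.27 and 8.40 on slides 1 to 4, and with dim values raised to the lowest signal called above background the median over all arrays was 4.20. With the slide as a block 0 of 19 passed, with 18 at an unadjusted p under 0.05, and with the skeletal muscle level as a covariate 0 passed, with 15 at an unadjusted p under 0.05 and a median of 3.56. Without slide 1, 19 passed, as did 1339 of all 15399 genes, and without slide 2, 3 or 4, 0 passed. Without 1 array the number was 11, 0, 0 and 0 for the control arrays, 6, 12, 2 and 0 for the ALA arrays, 17, 2, 0 and 2 for the X-ray arrays and 17, 0, 0 and 0 for the ALA plus X-ray arrays. The median stayed above 0 under each of these settings, and whether muscle or the first slide has a part in the result was not tested.

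The list's median difference from control was -1.66 in ALA and -0.94 in X-ray, the median sum of these single effects was -2.60, and the median difference with both was 1.71. Mean log2 levels of the list were -0.55, 0.19, 0.61 and 0.89 on the control arrays, -1.11, -0.48, -2.43 and -1.78 on ALA, 1.25, -0.28, -1.41 and -2.01 on X-ray and 0.62, 2.41, 2.35 and 2.80 on ALA plus X-ray. ALA tumours were thus all below 0, and 3 of 4 ALA plus X-ray tumours were above every other tumour, while the first ALA plus X-ray tumour was below the first X-ray tumour and below control 4. Between irradiated tumours, 8 of the 19 passed as higher with ALA than without it, against 1.3% of all genes. In tumour RNA, a change in the number of macrophages and a change in RNA per macrophage cannot be told apart.

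Upstream sequences are shown for C1qc, Aif1 and Lyz2, the named genes of the list that passed and had a single promoter entry, because macrophage genes moved together and PU.1 is the known regulator of the lineage. Capitals mark the core GAGGAA or its reverse complement TTCCTC, which C1qc and Aif1 held and Lyz2 did not. Each is the stretch of 250 bases before the RefSeq start, 5′ to 3′ on the gene's strand, in GRCm38.p6: chr4:136892915-136893164, minus strand for C1qc, chr17:35176053-35176302, minus strand for Aif1 and chr10:117282273-117282522, minus strand for Lyz2.
C1qc: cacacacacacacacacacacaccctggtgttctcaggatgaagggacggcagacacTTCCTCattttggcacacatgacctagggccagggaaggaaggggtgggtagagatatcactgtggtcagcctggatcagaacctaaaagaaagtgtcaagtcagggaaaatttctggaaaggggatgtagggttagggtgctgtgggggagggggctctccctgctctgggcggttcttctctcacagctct
Aif1: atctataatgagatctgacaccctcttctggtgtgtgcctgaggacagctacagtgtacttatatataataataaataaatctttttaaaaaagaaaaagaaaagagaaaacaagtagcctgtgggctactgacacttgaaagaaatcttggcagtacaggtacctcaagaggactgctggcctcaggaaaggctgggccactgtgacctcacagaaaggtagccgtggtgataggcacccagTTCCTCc
Lyz2: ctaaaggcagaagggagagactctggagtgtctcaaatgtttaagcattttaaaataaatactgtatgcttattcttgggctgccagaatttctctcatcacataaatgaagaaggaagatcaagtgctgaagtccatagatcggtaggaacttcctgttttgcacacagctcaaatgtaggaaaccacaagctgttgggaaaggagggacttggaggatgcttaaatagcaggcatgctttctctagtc
Over the 300 bases that run from 250 before to 50 after the start, on both strands, GAGGAA was found in 31.3% of 27025 genes. A set of 10 named genes was those of largest positive interaction that passed and were well above background on 2 or more arrays per group. Of these 10, 8 had an entry and 6 held the core. Of the macrophage markers 9 of 13 with an entry held it, and these sets share Ms4a7, C1qa, C1qc, Adgre1 and Aif1. A match of these letters is a description of the sequence and no evidence of binding.

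Ms4a7, a membrane protein gene of mature macrophages (probe at chr19:11396026-11396801 in mm9, the build of the array annotation), had levels of 0.97, 1.39, 0.90 and 1.97 in control, -1.44, -0.44, -2.93 and -1.72 in ALA, 1.31, -0.23, -0.95 and -2.20 in X-ray and 1.48, 2.70, 2.55 and 3.04 with both treatments. All ALA tumours were below all control tumours, 3 of the 4 tumours given both were above every other tumour, and the fourth, on slide 1, overlapped control. Its interaction was 5.90 (SE 0.91, 95% interval 3.96 to 7.84, a 59.8-fold ratio of ratios, limma adjusted p = 0.0272) and 2.59, 4.76, 7.33 and 8.92 on slides 1 to 4. Its adjusted p was 0.0515 with the slide as a block, and 0.000696 to 0.377 over all alternatives.

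Lyz2, which encodes the lysozyme of macrophages and other myeloid cells (probe at chr10:116714450-116714509), lay at 5.58, 5.85, 6.03 and 6.33 in control, 4.77, 4.94, 3.29 and 3.91 in ALA, 6.22, 5.64, 4.47 and 3.96 in X-ray and 6.93, 7.34, 7.71 and 7.39 with both treatments. All 4 tumours given both lay above all 12 others, and all 4 ALA tumours lay below all control tumours. Its interaction was 3.99 (SE 0.63, adjusted p = 0.0272), and its other probe gave 5.39.

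Adgre1, which encodes an adhesion receptor of mature macrophages (probe at chr17:57622843-57622902), had levels of 0.69, 1.74, 1.80 and 2.14 in control, -0.80, 0.27, -2.05 and -1.60 in ALA, 1.73, 0.68, 0.06 and -1.89 in X-ray and 1.67, 3.61, 3.88 and 3.98 with both treatments. The first tumour given both lay within the range of controls, and its 3 companions were above all others. The interaction was 5.78 (SE 1.02, adjusted p = 0.0274).

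C1qa and C1qc, which encode chains of complement C1q and lie close together on chromosome 4, gave nearly the same value. C1qa lay at 1.09, 1.52, 1.51 and 2.49 in control, -1.12, 0.00, -2.69 and -1.46 in ALA, 2.63, 0.74, -0.01 and -1.41 in X-ray and 2.16, 3.73, 3.26 and 4.31 with both treatments. The first X-ray tumour was above the first tumour given both. The interaction was 5.85 for C1qa (SE 1.05, adjusted p = 0.0275) and 5.85 for C1qc (SE 1.01, adjusted p = 0.0272). Aif1, which encodes the actin-bundling protein IBA1, had an interaction of 6.01 (SE 1.30, adjusted p = 0.0422), and on its slides it ran from 0.86 to 10.81.

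**Figure D2:**
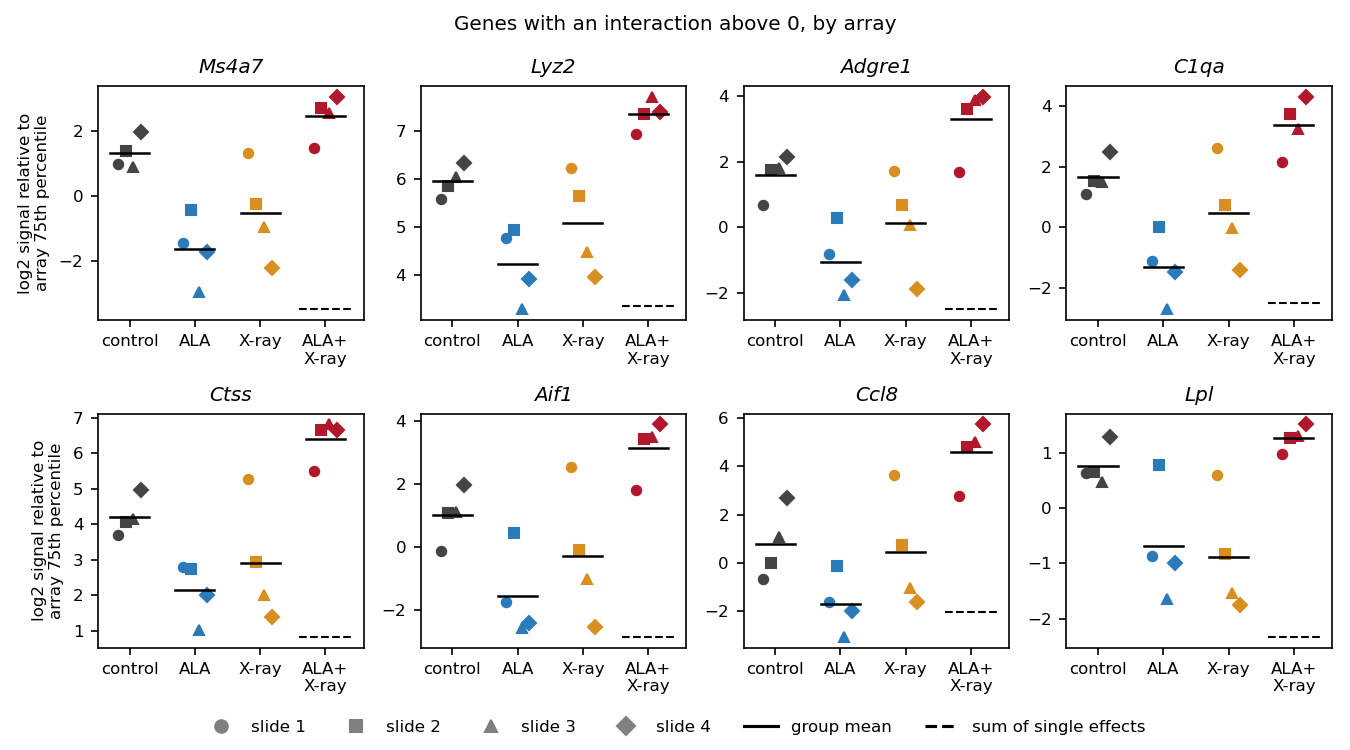
Log2 signal relative to the array's 75th percentile (vertical) for 8 genes that passed with an interaction above 0, on the 4 arrays of each group, with the slide as the symbol, the group mean as a solid line and the sum of the single effects as a dashed line. In every panel the tumours given ALA and X-ray lie far above the dashed line, and the tumour on slide 1 (circle) is the lowest of them.

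Other genes of phagocytes and their signals followed. Ctss, which encodes cathepsin S, the protease that trims the invariant chain in antigen presentation, lay at 3.69, 4.06, 4.14 and 4.98 in control, 2.79, 2.74, 1.02 and 2.02 in ALA, 5.27, 2.95, 2.01 and 1.40 in X-ray and 5.50, 6.67, 6.82 and 6.66 with both treatments. All tumours given both were above all others. Its interaction was 5.58 (SE 0.95, adjusted p = 0.0272).

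Ccl8, which encodes a chemokine that draws monocytes and lymphocytes (probe at chr11:81930108-81930167), lay at -0.66, -0.02, 1.06 and 2.69 in control, -1.64, -0.12, -3.08 and -2.00 in ALA, 3.65, 0.75, -1.05 and -1.61 in X-ray and 2.78, 4.82, 5.01 and 5.75 with both treatments. The first X-ray tumour overlapped the tumours given both. The interaction was 6.63 (SE 1.51, 95% interval 3.40 to 9.87, adjusted p = 0.0495), and it was the largest of the named genes that passed and were measured in every group. On slide 1 it was 0.11, and on slide 4 it was 12.05.

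Others that passed were Ly86 (6.04, adjusted p = 0.0313), whose protein MD-1 partners a Toll-like receptor homologue, Clec4a2 (5.66, 0.0383), a C-type lectin receptor of myeloid cells, and Wfdc17 (5.46, 0.0295), a small secreted protein of activated macrophages. The scavenger receptor and chemokine gene Cxcl16 was at 4.70 (0.0495), and Casp1, which encodes the protease of the inflammasome, at 4.26 (0.0461). Lpl, which encodes lipoprotein lipase and is made by fat, muscle and macrophages, was at 3.59 (SE 0.71, adjusted p = 0.0308). Of the 138 genes above 0, 12 were in the macrophage list and 19 in any of the 28 lists. Chosen after their values were seen, the microglia and macrophage receptor Trem2 (4.93), its signalling adaptor Tyrobp (4.33) and the bridging ligand Gas6 (5.36) also passed.

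Genes that were dim in a group are given by level, with no fold. Uox, which encodes urate oxidase, lay at -4.86, -2.26, -3.38 and -4.33 in control, -5.57, -5.52, -6.43 and -5.75 in ALA, -5.77, -5.91, -6.48 and -5.62 in X-ray and -1.56, -1.91, -3.00 and -2.68 with both treatments. It was well above background on 2 control arrays, 0 ALA, 0 X-ray and 4 ALA plus X-ray arrays, and had the smallest adjusted p (0.00679, 0.0226 with the slide as a block, and 0.000582 to 0.319 over all alternatives). Tlr7, which encodes a sensor of single-stranded RNA, was well above background on 2, 0, 1 and 4 arrays of the groups in that order (adjusted p = 0.0136), and Otulinl on 2, 0, 0 and 4 (0.0146). In all 3 the mean was highest with both treatments, and 1 or more control arrays overlapped that group in Uox and Otulinl. Among the named genes, these 3 and Olfr533 were the ones that passed with the slide as a block.

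The lists of interferon response, antigen presentation, cytokines and chemokines, and T and NK cells had medians above 0 and few members that passed, and each median was below 0 on slide 1. Dendritic cell genes (6 tested) had a median of -0.43, and of -0.83 on slide 1, and B and plasma cell genes (3 tested) of -0.69, and of -1.60 on slide 1. Interferon response genes, which respond to infection and damage, were above 0 in 36 of 38 members with a median of 1.44; 0 passed in limma, 7 had an unadjusted p under 0.05 above 0 and 1 below 0, and the slides gave -2.30, 1.26, 3.47 and 2.81. The mean log2 level was 2.20 on the first X-ray array against -0.52, -1.03 and -1.15 on the others, and 0.51 on the first ALA plus X-ray array against 1.61, 1.52 and 1.60 on the others. Without slide 1, 25 of 38 passed, as did 1339 of all 15399 genes, and without slide 2, 3 or 4 no gene of any list passed. Oasl2, which encodes an oligoadenylate synthetase-like antiviral protein, had an interaction of 3.63 (adjusted p = 0.193), and Ifi27l2a, a small mitochondrial interferon target, of 4.29.

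Antigen presentation genes had a median of 1.74 with 21 of 21 above 0, and Ctss alone passed. With the slide as a block 0 of the 21 passed in limma, with 10 at an unadjusted p under 0.05. H2-K1, which encodes the classical class I heavy chain, lay at 2.15, 2.96, 3.29 and 3.75 in control, 2.40, 2.73, 2.15 and 1.78 in ALA, 5.02, 2.39, 2.03 and 1.60 in X-ray and 4.07, 6.13, 6.09 and 6.40 with both treatments. The first slide again had the irradiated tumour high, and the interaction was 3.69 (adjusted p = 0.065). Its 4 probes ranged from 1.60 to 3.84, and near-identical class I genes can share signal. Inflammatory cytokines and chemokines had 19 of 20 tested members above 0, a median of 2.13 and 2 that passed, Ccl8 and Cxcl16. With the slide as a block or the muscle level as a covariate 0 of the 20 passed in limma, with 12 and 7 at an unadjusted p under 0.05. T and NK cell genes had 9 of 20 members bright enough to test, with 8 above 0 and a median of 2.30. Of these 0 passed, with 4 at an unadjusted p under 0.05. Of the 9, 6 were not well above background on any array of 1 or more groups. Raising dim values to the floor lowered that median to 1.14. The general leukocyte phosphatase gene Ptprc was at 4.74 (adjusted p = 0.0557). The T cell receptor subunit gene Cd3e was at -0.69, and Lck, the other named gene of the T and NK list, at 0.09.

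Stromal lists were also above 0. Of the 18 genes of fibroblasts and matrix, 17 lay above 0 with a median of 2.55, and 1 passed, Aspn, which encodes asporin, a small proteoglycan of the matrix, which was well above background on 1 X-ray array. With the slide as a block 0 of the 18 passed in limma, with 15 at an unadjusted p under 0.05. The list's median was -1.48, 2.06, 3.74 and 5.55 on slides 1 to 4. Its summed level ran from 111 to 544 with both treatments, against 59.3 to 140 on control arrays, 40.8 to 140 with ALA alone and 67.2 to 133 with X-ray alone. Endothelial genes had 9 of 13 above 0 with a median of 0.65 and 0 that passed, with 4 at an unadjusted p under 0.05; Kdr, the receptor for vascular endothelial growth factor, was at 1.33 (adjusted p = 0.0741). Skeletal muscle genes had 17 of 17 above 0 and a median of 4.53, yet 0 passed, with 6 at an unadjusted p under 0.05, and their slides ran from -4.11 to 12.53. Myh4, the fast myosin heavy chain, was at 8.81 with a 95% interval from 0.60 to 17.03 (adjusted p = 0.234). The pericyte and smooth muscle list had a median of 0.01, which was below 0 with quantile scaling, the authors' table and bright-spot scaling.

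**Figure D3:**
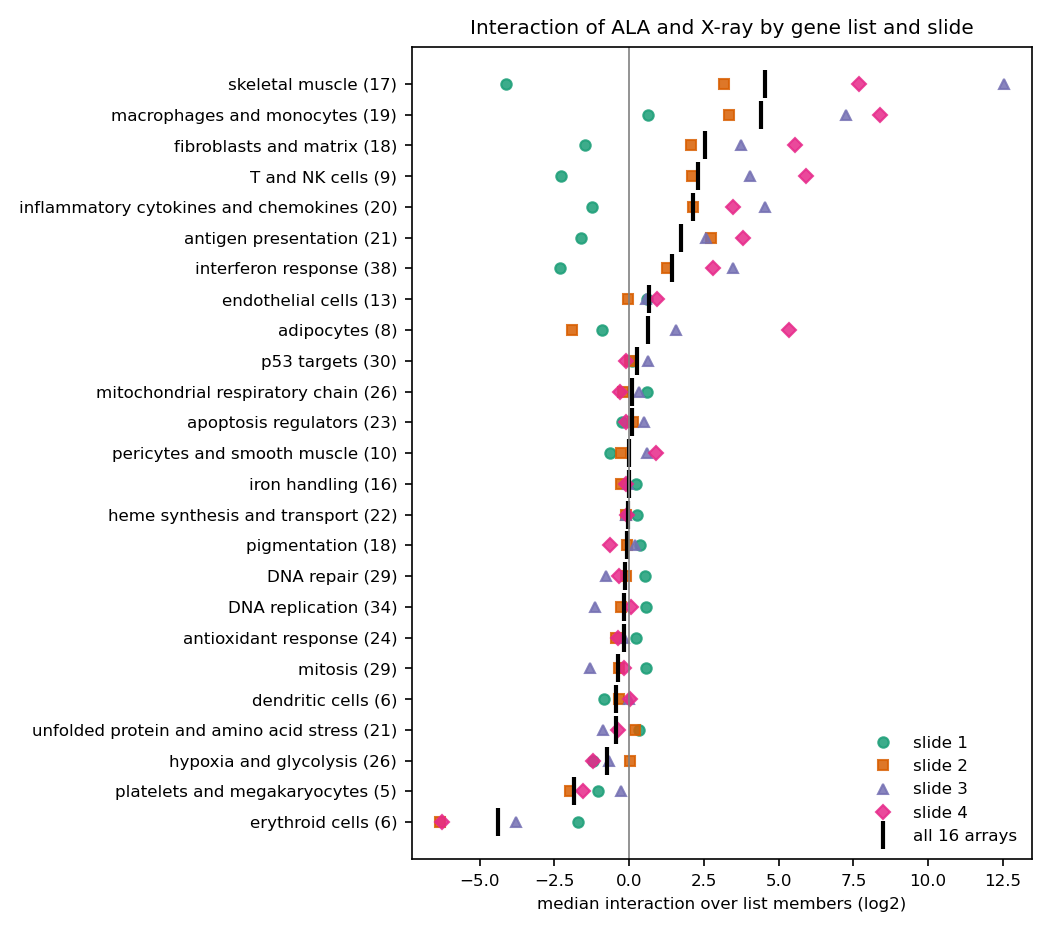
Median interaction over the tested members of each list (horizontal, log2; number of members in brackets) on slides 1 to 4, and over all 16 arrays (black bar), for the lists with at least 5 tested members. Macrophage and monocyte genes lie above 0 on all 4 slides, several immune, matrix and muscle lists lie below 0 on slide 1 and above 0 on the others, and erythroid genes lie below 0 on all 4.

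**Figure D4:**
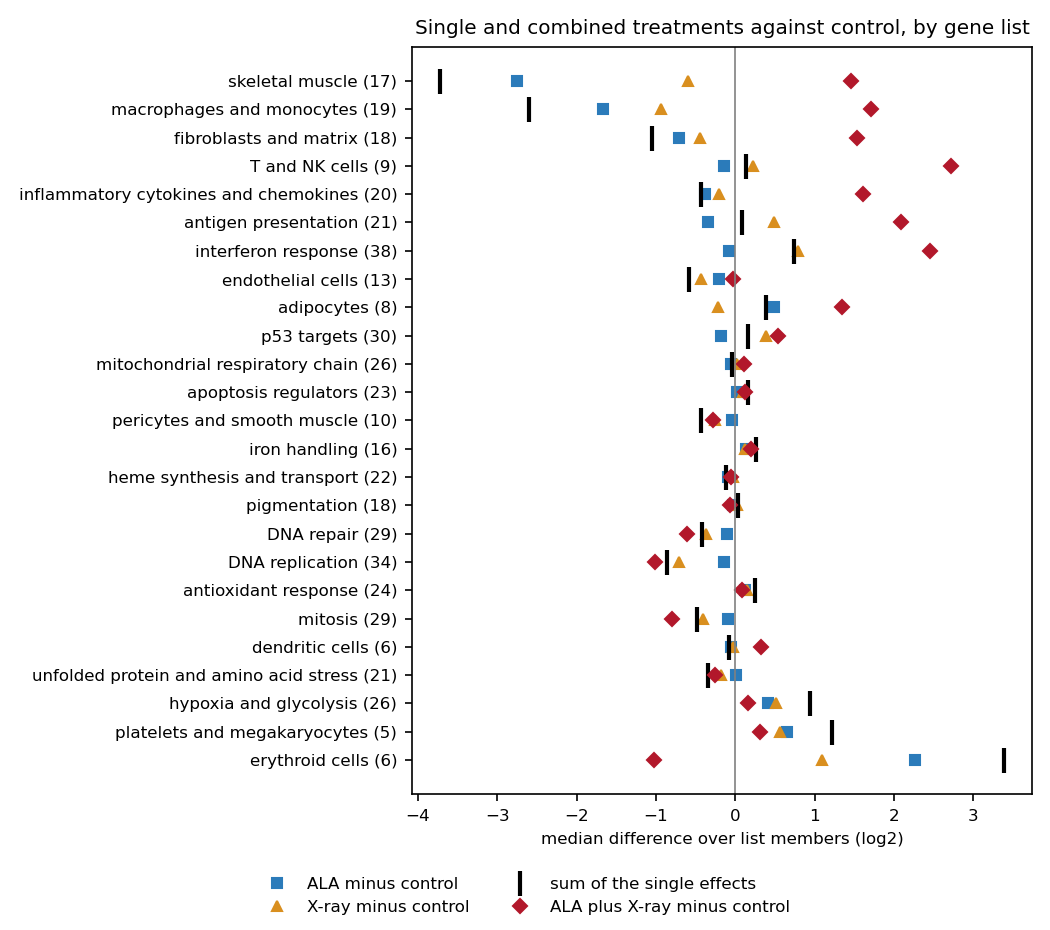
Median difference from control over list members (horizontal, log2) for ALA alone (square), X-ray alone (triangle) and both (diamond), with the median sum of the single effects as a bar, for the lists with at least 5 tested members. Macrophage genes lie at -1.66 and -0.94 with each agent alone and at 1.71 with both, while hypoxia genes lie at 0.41 and 0.51 with each alone and at 0.16 with both.

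Fewer genes passed below the additive level than above it, whereas at an unadjusted p under 0.05 more lay below 0. Ndrg1, which is induced by hypoxia and cell stress (probe at chr15:66761057-66761116), lay at 3.33, 3.53, 3.70 and 3.15 in control, 4.41, 3.50, 4.61 and 4.39 in ALA, 4.67, 4.59, 4.30 and 4.75 in X-ray and 2.94, 3.75, 3.64 and 3.91 with both treatments. X-ray tumours lay above all control tumours, and all ALA tumours but the second did, whereas tumours given both overlapped control. Its interaction was -1.82 (SE 0.35, adjusted p = 0.0295, 0.06 with the slide as a block, and 0.00242 to 0.907 over all alternatives).

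The hypoxia and glycolysis list, 26 genes under the control of HIF or in glucose breakdown, had 23 members below 0 and a median of -0.74, against -0.10 for all genes. Ndrg1 was the only one that passed. At an unadjusted p under 0.05, 15 lay below 0, as did 1578 of all 15399 genes. On all 4 slides 12 were below 0, against 15.6% of all genes. Without slide 1, 3 passed below 0 and 1 above, as did 396 and 943 of all 15399 genes. Without slide 2, 3 or 4, 0 passed. With the slide as a block or the skeletal muscle level as a covariate, 0 passed. Triose phosphate isomerase Tpi1 was at -0.64 (SE 0.16, adjusted p = 0.0648). Chosen outside the naming rule with their values known were 2 more members. The glycolytic enzyme gene Pfkl was at -1.02 (0.0662), and the angiogenic growth factor gene Vegfa, the lowest of the list, at -1.99 (0.12). The highest member was at 1.005. The list's median was -1.20, 0.02, -0.66 and -1.19 on slides 1 to 4. Against control the list's median was 0.41 higher in ALA, 0.51 higher in X-ray and 0.16 higher with both. The core ACGTG of the hypoxia response element was present in 17 of the 24 members with an entry (70.8%), against 21.8% of all genes. Known targets of HIF were put in the list, so this share describes the list and not the interaction.

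Gp9, which encodes a subunit of the platelet receptor for von Willebrand factor (probe at chr6:87729650-87729709), lay at -0.60, -0.82, -1.60 and -1.39 in control, -0.38, -0.94, -0.62 and -0.55 in ALA, -1.48, -1.21, -1.65 and -0.42 in X-ray and -2.29, -3.32, -3.16 and -3.58 with both treatments. All 4 tumours given both lay below all 12 others. The interaction was -2.38 (SE 0.44, adjusted p = 0.0295). Gp1bb, another subunit of the same receptor, passed too and was dim in part of the arrays. Pf4, a platelet chemokine also made by macrophages, had the opposite sign at 3.12 (adjusted p = 0.0507), so the 5 platelet genes did not go one way.

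Hemoglobin genes, which mark red cells and so blood in the preparation, had the largest list median below 0. Hba-a1 lay at 5.92, 4.67, 4.44 and 4.46 in control, 7.65, 8.26, 6.51 and 6.64 in ALA, 3.32, 6.73, 5.65 and 8.42 in X-ray and 3.00, 3.92, 3.87 and 4.33 with both treatments. ALA tumours lay above all control tumours, tumours given both lay below all control tumours, and X-ray tumours spread over the whole range. Its interaction was -4.65 (adjusted p = 0.0585), and near-identical alpha globin copies share its signal. The 6 erythroid genes tested had a median of -4.39, -1.70 to -6.32 by slide, with 0 that passed and 6 at an unadjusted p under 0.05.

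The other named genes below 0 had varied roles. Epha1, an ephrin receptor of epithelia, lay at -1.31, -1.58, -1.23 and -1.43 in control, -0.64, -0.96, -0.59 and -0.86 in ALA, -0.86, -0.78, -0.54 and -0.39 in X-ray and -1.84, -1.59, -1.85 and -0.96 with both treatments. Both single treatments were above all control tumours, and tumours given both overlapped control. The interaction was -1.54 (SE 0.26, adjusted p = 0.0272).

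Unc13a, which primes vesicles for release, had the same order of means, with an interaction of -1.76 (SE 0.33, adjusted p = 0.0295). Cnn2, which encodes the actin-binding protein calponin 2, was at -2.04 (adjusted p = 0.0422), with both single treatments above control on average. Epha3, another ephrin receptor, lay at 1.59, 1.25, 1.01 and 1.35 in control, 1.73, 1.44, 1.62 and 1.67 in ALA, 0.21, 1.09, 1.07 and 1.01 in X-ray and 0.12, -0.93, -0.51 and -0.28 with both treatments. Here the tumours given both lay below all others, and the interaction was -1.56 (SE 0.32, adjusted p = 0.0358).

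Tenm4, which encodes a teneurin, a large adhesion protein, lay at 0.61, 1.77, 0.61 and 1.55 in control, 0.43, 0.94, 0.79 and 0.60 in ALA, -0.56, -0.39, 0.16 and 0.26 in X-ray and -2.03, -2.68, -3.73 and -2.73 with both treatments. All X-ray tumours were below all unirradiated tumours, and all tumours given both lay lower still. The interaction was -2.21 (SE 0.49, adjusted p = 0.0439), and its other probe gave -1.38. Gsdmc3, of the gasdermin family of pore-forming proteins, was at -1.68 (adjusted p = 0.0313), the scaffold gene Mpp2 at -1.64 (0.0349) and the microtubule-binding Apc relative Apc2 at -1.56 (0.0495).

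Olfr533, an olfactory receptor gene, was well above background on 0 control, 0 ALA, 4 X-ray and 0 ALA plus X-ray arrays. It lay at -1.44, -1.93, -3.27 and -1.94 in X-ray, and between -6.54 and -4.19 on the other arrays. The X-ray arrays thus stood apart, while the other groups overlapped one another. The limma adjusted p was 0.0308, 0.0489 with the slide as a block, and 0.00285 to 0.377 over all alternatives. Cpeb4, a regulator of messenger RNA tails, was well above background on 3 ALA and 2 X-ray arrays and on no other (adjusted p = 0.0308).

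**Figure D5:**
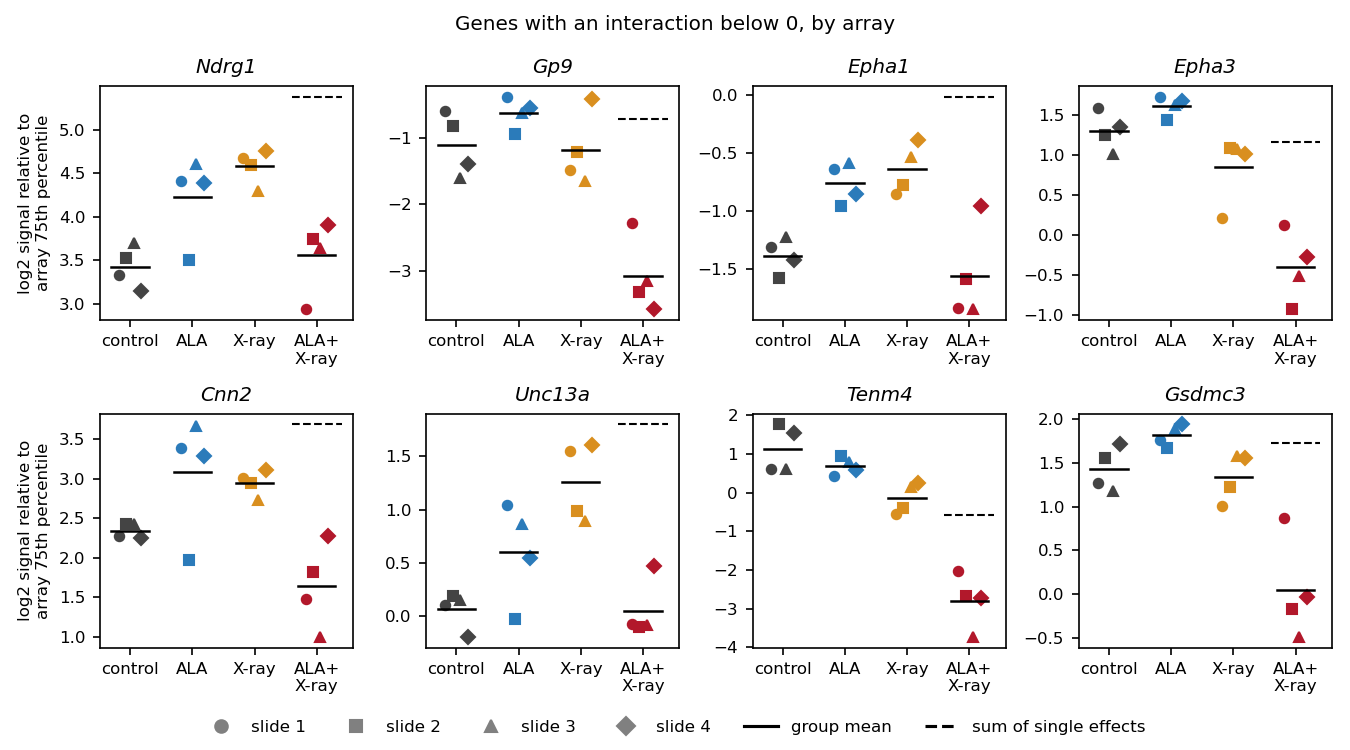
Log2 signal relative to the array's 75th percentile (vertical) for 8 genes that passed with an interaction below 0, drawn as for the genes above 0. For Ndrg1, Epha1, Cnn2 and Unc13a the mean with both treatments is near or below control while each single treatment is above it, and for Gp9, Epha3, Tenm4 and Gsdmc3 the tumours given both lie below the other groups.

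Genes of heme synthesis and transport, the pathway that ALA feeds, had 22 members tested, 11 above and 11 below 0, with a median of -0.02, above 0 with median scaling or normexp background, and 0 that passed; 4 had an unadjusted p under 0.05 above 0 and 3 below 0. Alas1, the synthase that makes ALA, lay at 3.15, 3.00, 2.90 and 3.15 in control, 2.20, 3.07, 0.89 and 1.44 in ALA, 3.22, 2.85, 2.93 and 2.20 in X-ray and 3.52, 3.32, 3.23 and 3.05 with both treatments. Of the ALA tumours 3 lay below all control tumours. The interaction was 1.63 (95% interval 0.56 to 2.69, adjusted p = 0.11).

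The porphyrin exporter Abcg2 was at 1.47 (adjusted p = 0.109), the heme exporter Flvcr1 at 0.72 (0.0929), the heme-degrading oxygenase Hmox1 at -1.38 (0.208) and ferrochelatase Fech, which inserts the iron, at 0.34 (0.58). Fech's second probe gave -0.42. Iron handling genes had a median of 0.00, below 0 with bright-spot scaling, and 0 of 16 passed. At an unadjusted p under 0.05 were 3 of them, against 19.1% of all genes. Antioxidant genes had 20 of 24 below 0 and a median of -0.17, with 0 that passed and 6 at an unadjusted p under 0.05. The metal and oxidant responsive gene Mt1 was at -0.91 (95% interval -1.36 to -0.46, adjusted p = 0.0507).

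The lists of the radiation response had median interactions nearer 0 than the macrophage list. Cdkn1a, which encodes p21 and is the p53 target that arrests the cycle, lay at 1.85, 2.40, 1.92 and 1.94 in control, 1.34, 1.54, 1.70 and 1.41 in ALA, 4.13, 3.50, 3.13 and 3.40 in X-ray and 3.62, 3.50, 3.79 and 3.02 with both treatments. Irradiated tumours lay above all unirradiated ones with or without ALA. Its interaction was 0.47 with a 95% interval from -0.17 to 1.11 (adjusted p = 0.404), and Mdm2, which restrains p53, was at 0.18 with an interval from -0.38 to 0.73.

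The p53 target list had 20 of 30 members above 0 and a median of 0.25, with 0 that passed and 5 at an unadjusted p under 0.05. DNA replication genes had 8 of 34 above 0 and a median of -0.17, mitosis genes 6 of 29 and -0.37, and DNA repair genes 9 of 29 and -0.14. In these lists 0 passed, with 0, 1 and 1 at an unadjusted p under 0.05. On slides 1 and 3 the median was 0.57 and -1.13 for replication, 0.56 and -1.31 for mitosis and 0.54 and -0.78 for repair. The replication and repair medians were above 0 with the muscle level as a covariate and without slide 3. Against control the replication list lay at -0.70 with X-ray and at -1.01 with both, where the sum of single effects was -0.87. Mki67, the proliferation marker, was at -0.57 with an interval from -1.56 to 0.43, and its other probe gave -1.05. The pigmentation list had a median of -0.08, which was above 0 with quantile or median scaling and in the authors' table, and the pigment enzyme gene Tyr was at 0.42 with an interval from -0.19 to 1.02. Mitochondrial respiratory chain genes had a median of 0.08, below 0 with array weights and without slide 1. Of these 26 genes 0 passed, with 0 at an unadjusted p under 0.05. For these lists a p that missed the threshold does not show that the effects add.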

How the data were processed

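The authors' deposited scanner output gives each spot's intensity, on a linear scale, from Agilent Feature Extraction 10.7.3.1 per the file headers (9.5.3.1 per the submitters' processing notes): a background-subtracted processed signal, with mean signals, local backgrounds and quality flags as other values. The authors' deposited table holds quantile-normalised intensity and served as an alternative. Here log2 of the processed signal minus the array's 75th percentile was averaged over a probe's spots, leaving out control spots and outliers. Of 41135 probes, a probe stayed if 4 or more of the 16 arrays had it well above background, and the probe of highest mean stood for its gene. Names came from RefSeq by accession (26844 probes), symbol (2891) or older symbol (350), or from the file (11050).

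The 4 group means were fitted with limma 3.58.1 (R 4.3.3), with Benjamini-Hochberg adjustment over 15399 genes at 0.05. For each direction, the named genes are the 10 of largest interaction that passed and were well above background on 2 or more arrays per group, the 3 of smallest p among dimmer genes, the 2 of smallest p per list, and a fixed set of pathway and cell markers. The members, the 28 lists and this rule were chosen with earlier results of these data known. The fit was tested on simulated data with independent arrays, the same spread in all groups and no slide effect. That test bears on how the fit works and not on the calls made here. Promoters are RefSeq's (GRCm38.p6).

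Alternatives were normexp background (offset 50), quantile, median and bright-spot scaling, the authors' table, other filters, all probes, array weights, robust moderation with a trend, the slide block, testing against 2-fold, muscle level as a covariate and arrays or slides left out; a floor for dim values was chosen after seeing the data. Deviations from the group mean were compared between arrays of different groups. Their correlation was -0.46 to 0.54 (median 0.06) in 24 same-slide pairs and -0.60 to 0.45 (median -0.01) in 72 different-slide pairs. Even so, 11 of 16 arrays were most like an array of their own slide. The main fit left the slide, a batch by the file headers, out of the model. It was fitted as a block as an alternative, and 8 genes then passed in limma against 189.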

Additional observations from a re-analysis of the deposited data

Results flagged for a closer look

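The effect of ALA differed between irradiated and unirradiated tumours, by the limma test of the interaction at an adjusted p under 0.05, in 30 of the 88 named genes. The naming rule took genes because they passed, so this share was set by the choice. Of all genes tested, 1.23% passed. The log2 interaction was above 0 in Ms4a7 (5.9), Lyz2 (3.99), Ctss (5.58), C1qc (5.85), Adgre1 (5.78), C1qa (5.85), Wfdc17 (5.46), Lpl (3.59), Ly86 (6.04), Clec4a2 (5.66), Aif1 (6.01), Casp1 (4.26), Cxcl16 (4.7) and Ccl8 (6.63). It was below 0 in Epha1 (-1.54), Gp9 (-2.38), Unc13a (-1.76), Ndrg1 (-1.82), Gsdmc3 (-1.68), Mpp2 (-1.64), Epha3 (-1.56), Cnn2 (-2.04), Tenm4 (-2.21) and Apc2 (-1.56). In 6 of the 30 genes, well above background on fewer than 2 arrays of some group, only the direction and the adjusted p are given: above 0 in Uox (0.00679), Tlr7 (0.0136) and Otulinl (0.0146), and below 0 in Cpeb4 (0.0308), Olfr533 (0.0308) and Gp1bb (0.0388).

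A single array stood apart from the other 3 of its group, by Dixon's test at the 95% level, in 24 of 352 sets of 1 named gene in 1 group; chance flags about 1 set in 20. Of these, 7 were ALA plus X-ray replicate 1 lying low, on the slide whose omission raised the number of genes that passed. ALA replicate 1 was high for S100a9 (log2 level 1.78, nearest array 0.29). ALA replicate 1 was low for Ndufb5 (log2 level 1.76, nearest array 2.03). ALA replicate 2 was low for Tpi1 (log2 level 7.57, nearest array 7.79). ALA plus X-ray replicate 1 was high for Olfr533 (log2 level -5.26, nearest array -6.34). ALA plus X-ray replicate 1 was low for Pparg (log2 level -1.02, nearest array -0.55), H2-K1 (log2 level 4.07, nearest array 6.09), Il1b (log2 level -5.35, nearest array -0.74), Adgre1 (log2 level 1.67, nearest array 3.61), Oasl2 (log2 level 0.57, nearest array 2.21), Ctss (log2 level 5.5, nearest array 6.66) and Otulinl (log2 level -3.72, nearest array -2.17). ALA plus X-ray replicate 4 was high for Krt5 (log2 level 1.79, nearest array -3.63) and Unc13a (log2 level 0.47, nearest array -0.08). X-ray replicate 1 was high for Oasl2 (log2 level 2.45, nearest array -2.23). X-ray replicate 1 was low for Kdr (log2 level -1.93, nearest array -0.88) and Epha3 (log2 level 0.21, nearest array 1.01). X-ray replicate 2 was high for Ttk (log2 level -3.11, nearest array -3.66) and Ccng1 (log2 level 4.05, nearest array 3.51). Control replicate 1 was high for Hba-a1 (log2 level 5.92, nearest array 4.67). Control replicate 2 was high for Cdkn1a (log2 level 2.4, nearest array 1.94). Control replicate 3 was high for Flvcr1 (log2 level 1.55, nearest array 1.32). Control replicate 3 was low for Emcn (log2 level 1.73, nearest array 2.12) and Trib3 (log2 level 1.52, nearest array 2.05). Control replicate 4 was high for Apc2 (log2 level -2.35, nearest array -3.31).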

How the results depend on the processing

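Against 189 genes in the main setting, the count was 40 with no filter on dim probes, 8 with the replicate block, 2023 with array weights (977 above 0 and 1046 below 0), 1 with a 2-fold minimum and 4 with the skeletal muscle level as a covariate. Leaving out 1 array gave 1 to 1065 and leaving out 1 slide 0 to 1339. It was 133 to 273 with the other alternatives: normexp background, other scalings, the authors' table, a filter on all 16 arrays (109 above 0 and 66 below 0), all probes, trend and robust moderation, and the floor. The cause of these shifts was not tested. The replicate block changed the call of 26 of the 30 named genes that had passed. Compared with arrays of other groups only, 11 of 16 arrays were most like an array of their own slide. The slide is a batch by the file headers. All 30 missed the threshold under at least 1 setting and none changed sign. Of 58 named genes that had not passed, 8 changed sign and 29 passed under some setting. The median of 12 of 28 lists changed sign somewhere, and that of macrophages and monocytes ranged from 3.32 to 6.03. With 4 arrays a group, an interaction of median standard error 0.28 limits what can be called, and dim probes have only a bound.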

Other observations

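Xist, chosen after its values were seen, was the RNA whose presence went against the label for sex, and it had an interaction of its own. Its log2 level was -0.58, -0.66, -0.48 and -0.29 in control, -1.11, -0.80, -2.49 and -1.77 in ALA, -0.67, -2.01, -1.88 and -1.41 in X-ray and -0.78, 0.44, -0.11 and 0.84 in ALA plus X-ray. Its interaction was 2.63 (limma adjusted p = 0.0388), and 3 of the 4 tumours given both lay above all others. The Y chromosome genes had levels between -6.62 and -4.61 and were not well above background on any array.

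Among genes below 0 that were chosen after their values were seen, Cdkn1b, which encodes the cell cycle inhibitor p27, had an interaction of -1.05 and Pkm, which encodes the last enzyme of glycolysis, of -0.88, and both passed. Among genes above 0 chosen in the same way, the growth factor gene Igf1 was at 3.41, the scavenger receptor gene Stab1 at 2.87 and the endothelial and myeloid receptor gene Cd93 at 1.85. Itgax, a dendritic cell and macrophage integrin, was the member of the dendritic cell list that passed, and it was well above background on 3 control, 0 ALA and 2 X-ray arrays.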
